A study of Danio rerio with 72 samples.

Results

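Epidermal identity and desmosome genes of the zebrafish were followed through laser captures of the embryonic tail. The 7 genes were tp63, epcam, cdh1, evpla, ppl, dspa and jupa, taken by name from the deposited tables, with earlier results of these data known. All 7 were found among the 25067 protein-coding genes of each table, and all 7 passed the filter on low values in both series (18263 genes in series M, 16547 in series Z).

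Tails of 52 hpf embryos (hours post fertilization) were frozen, cryosectioned and stained with cresyl violet, and 6 regions were cut from each section with a laser. The regions were the caudal vein plexus (CVP), caudal vein (CV) and caudal artery (CA), which together form the caudal hematopoietic tissue (CHT), the left (L) and right (R) muscle, and neural tissue (N). Series M held sections (layers) 2, 6, 8, 12, 15 and 17, and series Z held layers 1, 6, 10, 19, 22 and 25, with 1 poly(A) RNA library per region and section. No mutant line, transgene or treatment is named. Captures were cut by position and stain, so each holds every cell type within its outline. The meaning of M and Z and the embryo behind each section are not in the labels, so p-values measure the spread between sections only, and sections of a single embryo would make them too small.

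The epidermis of the embryo has an outer periderm and a basal layer of keratinocytes, which depends on the transcription factor p63 (tp63). Its cells are held together by adherens junctions built on E-cadherin (cdh1), by the adhesion molecule Epcam (epcam) and by desmosomes, in which plakoglobin (jupa) and desmoplakin (dspa) tie the membrane to keratin filaments. Envoplakin (evpla) and periplakin (ppl), known from the cornified envelope of mammalian skin, belong with desmoplakin to the plakin family. In the tail the epidermis folds into the fin beside the vessels, and desmosomes and plakoglobin also occur outside the skin.

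Values are FPKM, reads per gene scaled to gene length and to the library total, and log2 values are log2(FPKM + 1). Depth recovered from the values ran from 75007 to 875545 reads over the 36 libraries of series M (median 315180). Series Z had 91102 to 4009980 reads over 35 libraries (median 704921). In series Z, L of layer 6 equalled the mean of L of layers 1 and 10, rounded up, for 7859 of 7859 genes with reads, and it was left out of every value and fit below. Neural markers averaged 8.20 and 8.26 on the log2 scale in N (series M and Z) and at most 1.35 elsewhere, and skeletal muscle markers averaged 12.35 to 13.03 in L and R. Endothelial markers averaged 5.73 ± 0.52 in CVP, 1.54 ± 1.33 in CV and 3.22 ± 1.39 in CA of series M (SD over 6 libraries), and 5.33 ± 0.65, 5.02 ± 0.38 and 4.30 ± 0.94 in those of series Z. In series M the CV captures thus had a low endothelial level, with kdrl, the main Vegf receptor of endothelium, at 0 in 3 of 6 libraries and lyve1b at 0 in all 6. By their whole profile, 4 libraries of series M lay closest to another region: CA of layers 8, 15 and 17 and CVP of layer 17. In series Z they were CVP of layers 22 and 25 and CV of layer 25.

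The 7 genes were at their highest mean level in CV, in series M without exception and in series Z for 6, dspa being the other (2.96 in CVP against 2.83 in CV). The mean log2 level over the 7 genes was 3.36 ± 1.47 in CVP, 6.24 ± 0.58 in CV, 2.91 ± 2.18 in CA, 1.87 ± 1.32 in L, 2.19 ± 1.29 in R and 2.15 ± 0.22 in N of series M (SD over sections, n = 6). In series Z it was 3.18 ± 0.81 in CVP, 4.50 ± 0.56 in CV, 1.50 ± 0.76 in CA, 2.28 ± 1.49 in L (n = 5), 2.22 ± 1.51 in R and 1.68 ± 0.32 in N. Counted gene by gene within each section, CV held the highest value of the regions in 30 of 42 cases in series M and in 27 of 42 in series Z. CA held it in 8 and 2, CVP in 3 and 5, and N in 1 and 0. L and R held it in none of the cases in series M and in 4 each in series Z. In layer 6 of series Z the left-out L was not among the values compared. The cases are 7 correlated genes in the same libraries, and the share over all genes is not given. All 7 genes were above 0 in each CV library of series M and 6 or 7 in each of series Z, against 2 to 7 and 1 to 5 in the CA libraries. The other captures of series M held 5 to 7 (CVP), 1 to 7 (L), 5 to 7 (R) and 6 to 7 (N). Those of series Z held 3 to 7 (CVP), 2 to 7 (L), 0 to 7 (R) and 4 to 6 (N). In bulk captures, fewer cells of a type and less RNA per cell cannot be told apart.

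**Figure D1:**
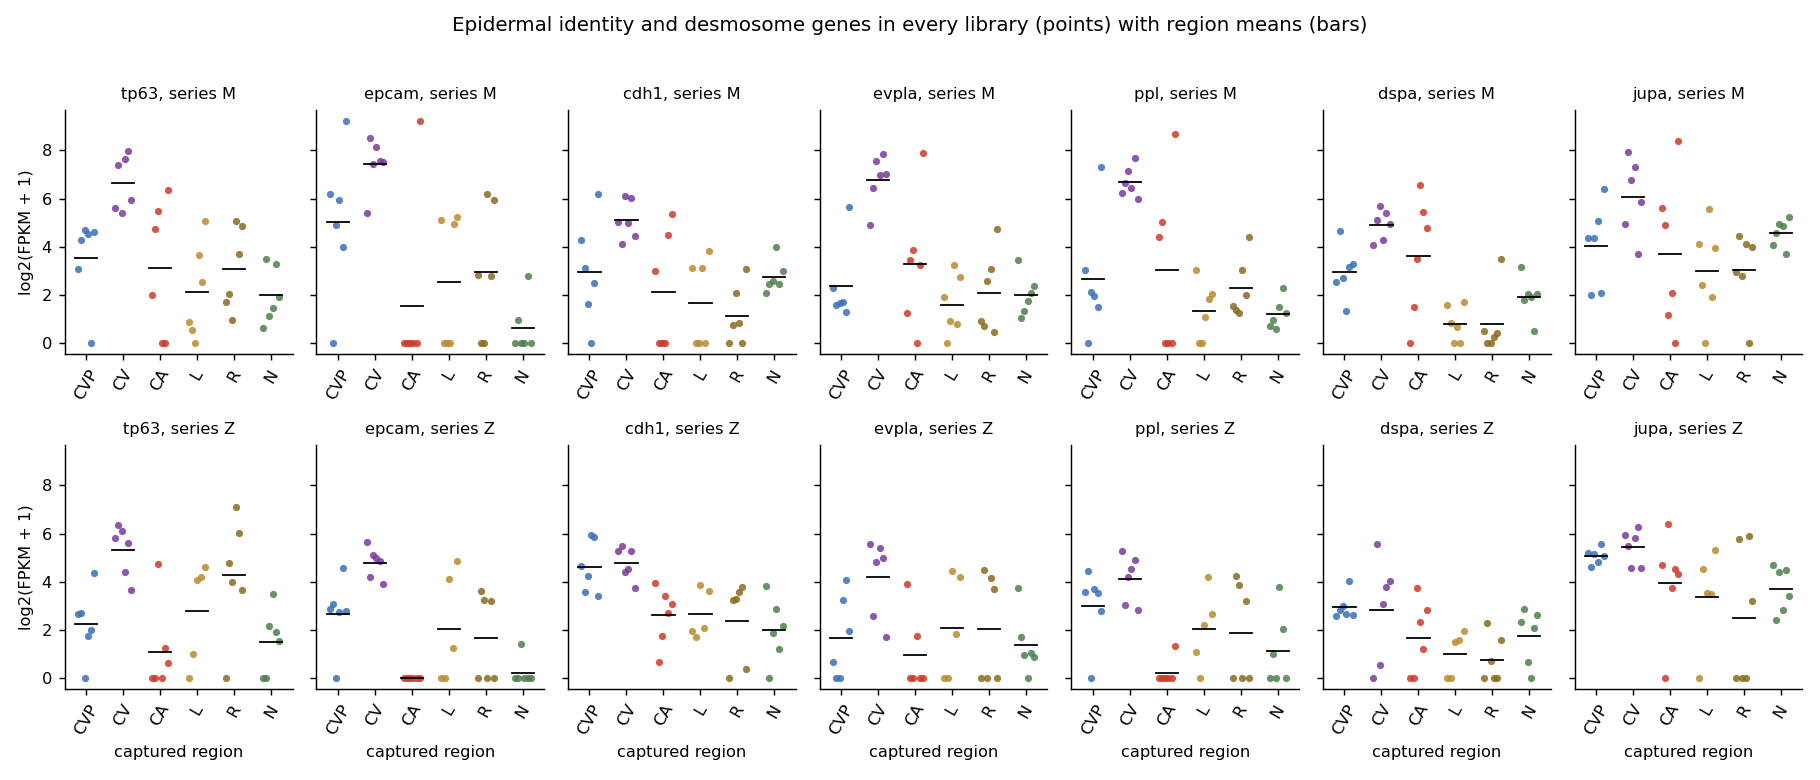
Levels of the 7 genes in every library, as log2(FPKM + 1), by region (CVP, CV, CA, L, R, N) and series. Each point is 1 library and each bar the mean of its region. In CV the 7 genes of series M and 6 of the 7 of series Z have their highest mean. Some CA and CVP libraries reach the CV range, and for dspa and jupa of series Z every CVP library lies within it.

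Among the identity genes, tp63 was measured in CV at 41.5 to 252 FPKM in series M (median 114), with CVP at 0 to 24.9 (median 20.2) and CA at 0 to 81.7 (median 14.3). Each CV library of series M lay above each CVP library, while CA of layers 8 and 17 reached into the CV range. In series Z, CVP held 0 to 19.5 FPKM (median 4.10), CV 11.7 to 80.6 (median 51.6) and CA 0 to 26.0 (median 0.278, 3 of 6 at 0). CV thus exceeded the other vessel captures in most sections, but muscle reached as high in series Z. R had 0.927 to 32.5 FPKM in series M (median 7.59) and 0 to 138 (median 20.9) in series Z, whose highest tp63 value it held. L had 0 to 32.9 FPKM in series M (median 2.83) and 0, 0.985, 15.7, 17.6 and 23.3 in the 5 libraries of series Z. In N the gene had 0.528 to 10.1 FPKM in series M (median 2.24) and a median of 2.33 in series Z, where 2 of 6 libraries were at 0. In the order of mean log2 levels of series M, CV (6.66) stood above CVP (3.53) by more than the larger SD, and the steps from CVP through CA (3.10), R (3.06) and L (2.12) to N (1.98) were within it. In series Z no step between neighbours exceeded the SD, in the order CV (5.33), R (4.27), L (2.77), CVP (2.24), N (1.52) and CA (1.11).

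The adhesion gene epcam ranged widely within single regions. In series M its FPKM ran from 0 to 597 in CVP (median 45.0), from 41.7 to 360.2 in CV (median 186) and, in CA, was 0 in 5 libraries and 589.8 in that of layer 17. The CA values were thus at 0 apart from 1 library that exceeded each CV library. In series Z, CVP held 0 to 22.7 FPKM (median 6.12) and CV 14.0 to 49.3 (median 29.0), while epcam was listed at 0 in 6 of 6 CA libraries. It was scarce in N as well, at 0 in 4 of 6 libraries of series M (highest 5.90) and in 5 of 6 of series Z (highest 1.68). Muscle lay between, with medians of 14.7 FPKM in L and 6.07 in R of series M. In series Z the L libraries held 0, 0, 1.36, 16.1 and 27.9 FPKM and the R libraries 0 to 11.4 (median 4.15). The only step between neighbouring means beyond the larger SD was CV (4.78 ± 0.64) above CVP (2.67 ± 1.48) in series Z.

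E-cadherin, cdh1, lay higher in CVP and CV than in CA by median in both series. In series M it had 0 to 72.2 FPKM in CVP (median 6.17), 16.1 to 67.6 in CV (median 31.0) and 0 to 39.7 in CA (median 3.49). In series Z it had 9.52 to 59.8 FPKM in CVP (median 21.1), 12.4 to 44.0 in CV (median 29.7) and 0.615 to 14.7 in CA (median 6.52). The CVP of series Z thus overlapped CV, with means of 4.61 ± 1.09 and 4.78 ± 0.67 on the log2 scale, and the first step beyond the larger SD came below CVP, to L at 2.65 ± 1.01. In series M that step was CV (5.11 ± 0.81) above CVP (2.96 ± 2.14), by 2.15. N held cdh1 in each library of series M, at 3.24 to 14.9 FPKM (median 4.74), and at 0 to 13.3 in series Z (median 3.12). The muscle medians were 3.87 (L) and 0.731 (R) FPKM in series M, against 3.26 (L) and 8.72 (R) in series Z.

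The plakin genes evpla and ppl had the highest CV means of series M after epcam. Evpla had 1.42 to 49.6 FPKM in CVP (median 2.19), 29.2 to 232 in CV (median 126) and 0 to 234 in CA (median 9.18). Ppl had 0 to 156 FPKM in CVP (median 3.12), 61.9 to 205 in CV (median 92.1) and 0 to 412 in CA (median 9.98). In both genes the highest CVP and CA values belonged to layer 17, and without that section CVP did not exceed 3.87 FPKM for evpla or 7.25 for ppl. In series Z evpla had 0 to 16.0 FPKM in CVP (median 1.77), 2.28 to 46.1 in CV (median 28.9) and 0 to 14.0 in CA (4 of 6 at 0). Ppl in that series had 0 to 21.0 FPKM in CVP (median 10.9), 6.18 to 37.6 in CV (median 19.6) and a single value above 0 in CA, of 1.52. So ppl separated CV from CA completely in series Z, while evpla overlapped. Outside the vessels both were low in N, with medians of 2.79 and 1.01 FPKM for evpla and 1.15 and 0.500 for ppl (series M and Z). In R they reached 25.3 (evpla) and 20.2 (ppl) FPKM in series M, both in layer 17. The order of means had 1 step beyond the larger SD for each gene, CV above CA in series M (6.79 ± 1.05 against 3.28 ± 2.70 for evpla, 6.69 ± 0.63 against 3.02 ± 3.62 for ppl).

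Dspa, the keratin anchor of the desmosome, had the smallest gap of the 7 between CV and CA in both series. In series M it had 1.54 to 24.0 FPKM in CVP (median 6.65), 15.7 to 50.5 in CV (median 31.5) and 0 to 93.1 in CA (median 18.3). Its highest CA value was that of layer 12, a library in which tp63, epcam, cdh1, evpla and ppl were all at 0. In series Z it had 5.0 to 15.6 FPKM in CVP (median 5.75), 0 to 45.9 in CV (median 10.1) and 0 to 12.3 in CA (median 2.69), so the 3 vessel captures overlapped. Muscle held little of it, with 0 to 2.23 FPKM in L and 0 to 10.1 in R of series M, and 0, 0, 1.85, 1.96 and 2.94 in L and 0 to 3.83 in R of series Z. N was above muscle in median, at 2.91 and 3.61 FPKM in series M and Z, and in series M the step from N (1.91 ± 0.85) to L (0.79 ± 0.73) exceeded the larger SD.

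Plakoglobin, jupa, which serves adherens junctions as well as desmosomes, was present in each N library. In series M it had 2.99 to 82.7 FPKM in CVP (median 19.6), 11.9 to 244 in CV (median 82.0), 0 to 336 in CA (median 16.2) and 11.9 to 36.2 in N (median 25.4). N therefore came second to CV in the order of means (4.56 ± 0.58 and 6.08 ± 1.58), and jupa was the 1 gene of the 7 whose CV and N libraries overlapped in series M. In series Z it had 23.4 to 46.6 FPKM in CVP (median 33.5), 22.7 to 76.6 in CV (median 50.1), 0 to 83.2 in CA (median 20.8) and 4.40 to 24.9 in N (median 14.8). The CVP libraries of series Z were tight, with an SD of 0.33 on the log2 scale, and no step between neighbouring means exceeded the larger SD in either series. Muscle ranged from 0 to 45.9 FPKM in L and 0 to 20.5 in R of series M, and R of series Z had 3 of 6 libraries at 0 and 53.2 and 59.1 at the top.

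The comparison of CV with CA asked which of the 7 genes differed between these captures, each holding other cell types besides its vessel. Tp63, epcam, evpla and ppl rose in CV in both series, cdh1, dspa and jupa did not pass the test in either, and the difference was positive for all 7. In series M, 4 of 7 passed at an adjusted p under 0.05 (limma-trend with section as a block, Benjamini-Hochberg over all genes), where 1.41% of all genes tested were called higher. In series Z, 4 of 7 passed, where 3.41% of all genes were. The median difference of the 7 was 3.51 and 3.24 (series M and Z) on the log2(FPKM + 1) scale, beside 0 and 0.25 over all genes tested. Every CV library lay above every CA library for 0 of 7 genes in series M (0.148% of all genes) and for epcam and ppl in series Z (1.55%). Every CV library lay above every N library for 6 of 7 genes in series M (1.11%), all but jupa, and for tp63 and epcam in series Z (3.18%). Above every L and R library it lay for tp63, cdh1, evpla, ppl and dspa in series M (1.3%) and for 0 of 7 in series Z (1.98%).

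Epcam had the largest difference of the 7, at 5.90 ± 1.19 (SE) in series M (adjusted p = 0.00232), with CV higher in 5 of 6 sections, and at 4.78 ± 0.84 in series Z (adjusted p = 0.000268), higher in 6 of 6. For tp63 the difference was 3.56 ± 1.01 in series M (adjusted p = 0.0456, higher in 4 of 6) and 4.22 ± 0.97 in series Z (adjusted p = 0.00632, higher in 6 of 6). Ppl differed by 3.67 ± 1.00 in series M (adjusted p = 0.0352, higher in 5 of 6) and by 3.90 ± 0.85 in series Z (adjusted p = 0.0036, higher in 6 of 6). Evpla differed by 3.51 ± 0.86 in series M (adjusted p = 0.0158, higher in 5 of 6) and by 3.24 ± 0.97 in series Z (adjusted p = 0.0476, higher in 6 of 6). Cdh1 was higher in CV in 5 of 6 and 6 of 6 sections without passing, at 2.97 ± 0.91 and 2.18 ± 0.77 (adjusted p = 0.0686 and 0.109). The junction proteins dspa and jupa had 1.29 ± 0.85 and 2.39 ± 0.91 in series M (adjusted p = 0.521 and 0.177) and 1.15 ± 0.77 and 1.49 ± 0.99 in series Z (adjusted p = 0.51 and 0.504). Taken alone across the 6 sections, the 5 genes with CV higher in every section of series Z had an exact two-sided sign-flip p of 0.0312, the smallest that 6 sections allow. In series M, evpla, cdh1 and epcam had 0.0625, and tp63 and ppl 0.125.

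The calls in series M depend on the spread. In simulated data with known changes, false calls of CV against CA were more frequent than the threshold intends in both series, most of all in series M with 1 spread shared by all regions, and fewer with the spread weighted by region. Noise beyond read sampling was drawn alike for every region there, without a section effect. The simulation thus did not model a spread that differs between regions. In the real libraries of series M residuals were wider in the vessel captures (median SD 1.42 in CA and 1.43 in CV) than in muscle and N (0.83 to 0.91). With the spread weighted by region 0 of 7 genes passed by limma (epcam at an adjusted p of 0.0687), where 0.411% of all genes did. With 1 shared spread 4 of 7 passed, and 6 of 7 had an unadjusted p under 0.05, beside 2686 of all 18263 genes in either direction. Limma-voom on the recovered reads called 1 of 7. A fit of CV and CA alone called 0 of 7 (series M) and 1 of 7 (series Z), and a pseudocount of 0.1 called 1 of 7 in series M. The share of all genes called is not given for limma-voom, this fit or this pseudocount. A loss of calls among the 7 is thus not set against that among all genes here. In series Z epcam, tp63 and ppl kept their call under the weighted spread (2.51% of all genes), and evpla had an adjusted p of 0.0878. By its whole profile CA of layer 17 resembled CV most, and it was left out after its values were seen, a choice that itself widens the difference. Without it 6 of 7 genes passed in series M with 1 shared spread (2.02% of all genes) and epcam and ppl with the weighted one (0.679%), so these counts are a description and no added support.

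**Figure D2:**
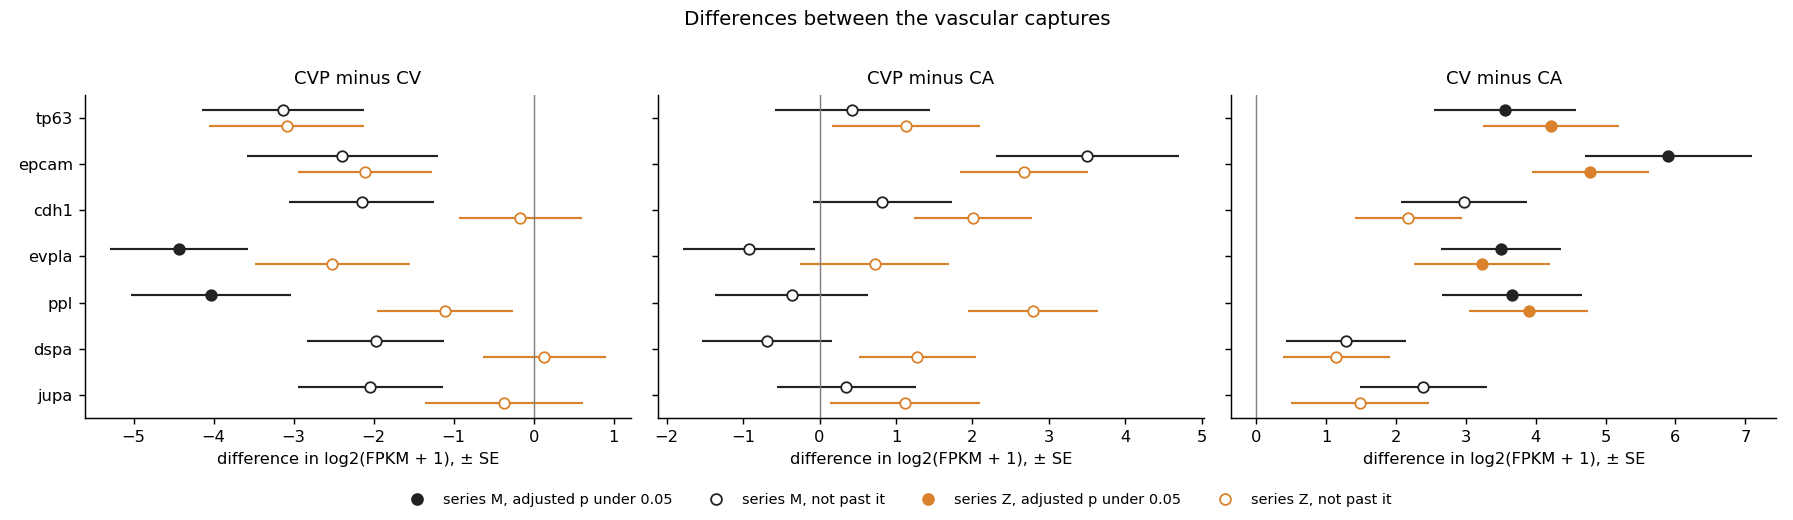
Differences of CV minus CA, CVP minus CA and CVP minus CV for each gene, on the log2(FPKM + 1) scale, with the SE of the fit; filled symbols passed an adjusted p under 0.05. In CV minus CA tp63, epcam, evpla and ppl passed in both series. In CVP minus CV all 7 genes lay below 0 in series M, where evpla and ppl passed.

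Compared with CV, CVP had less evpla and ppl in series M. Evpla fell by 4.43 ± 0.86 on the log2 scale (adjusted p = 0.00194), lower in CVP in 6 of 6 sections, and ppl fell by 4.03 ± 1.00 (adjusted p = 0.0139), lower in 5 of 6. These were the 2 of 7 genes called, where 0.657% of all genes tested were called lower in series M. The difference was below 0 for all 7 in that series. Tp63 was lower in CVP in 6 of 6 sections without passing, at -3.13 ± 1.01 (adjusted p = 0.0623), and its CVP and CV libraries did not overlap in series M, as held for 0.0931% of all genes (0 of 7 genes in series Z, 0.205% of all). In series Z limma called 0 of 7 genes (0.242% of all genes) and limma-voom called 0. At an unadjusted p under 0.05 stood 3 of 7, beside 1720 of all 16547 genes in either direction. The differences ran from -3.09 ± 0.97 for tp63 to 0.13 for dspa, which turned to -0.50 under quantile scaling. With the spread weighted by region evpla alone passed in series M, where 0.0712% of all genes did. In that series 0 of 7 passed with detected genes per library as a covariate or in a fit of CVP and CV alone. The share of all genes called is not given for limma-voom, this covariate or this fit.

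Between CVP and CA limma called 0 of 7 genes in both series, where 3% of all genes were called higher in series M and 3.75% in series Z. In series M the differences ran from -0.92 for evpla to 3.50 ± 1.19 for epcam (adjusted p = 0.0917), with 0 called by limma-voom. At an unadjusted p under 0.05 stood 1 of 7 genes, beside 3456 of all 18263 in either direction. In series Z all 7 were positive, from 0.72 to 2.79 ± 0.85 for ppl (adjusted p = 0.0505). Of these, 3 of 7 had an unadjusted p under 0.05, beside 3198 of all 16547 genes in either direction. Limma-voom called 2 of 7 there, and the share of all genes that it called is not given for either series. Cdh1 was higher in CVP in 6 of 6 sections of series Z, at 2.01 ± 0.77 (adjusted p = 0.129).

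Set against N, the mean of the 3 vessel captures held more epcam in both series. In series M 5 of 7 genes rose in CHT, epcam by 4.05 ± 0.98 (adjusted p = 0.00161), ppl by 2.91 ± 0.82 (adjusted p = 0.00638), tp63 by 2.45 ± 0.83 (adjusted p = 0.0234), evpla by 2.13 ± 0.70 (adjusted p = 0.0201) and dspa by 1.92 ± 0.70 (adjusted p = 0.0351). CHT was higher in 6 of 6 sections for epcam and ppl and in 5 of 6 for the other 3. Jupa averaged 4.61 in CHT and 4.56 in N, and cdh1 differed by 0.64 ± 0.74 (adjusted p = 0.55). In series Z epcam rose by 2.25 ± 0.69 (adjusted p = 0.0122) and cdh1 by 2.00 ± 0.63 (adjusted p = 0.0144), each in 6 of 6 sections, and these were 2 of 7. Called higher were 2.52% of all genes in series M and 5.51% in series Z, and the median of all genes was -0.91 and -0.65. CV had the highest level of the 3 captures behind the CHT mean for each gene but dspa in series Z. Once detected genes per library entered as a covariate, 0 of 7 genes passed in series M (epcam at 6.52 ± 2.61, adjusted p = 0.24), and with a pseudocount of 0.1 epcam alone did. Leaving out layer 8 or 17 reduced the 5 genes of series M to 2, and leaving out layer 22 reduced the 2 of series Z to 0. The share of all genes called is not given for the covariate, this pseudocount or the fits without 1 section.

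Against muscle, CHT had more dspa, cdh1 and jupa in both series. Dspa rose by 3.04 ± 0.55 in series M (adjusted p = 7.1e-05) and by 1.54 ± 0.51 in series Z (adjusted p = 0.0247), higher in CHT in 6 of 6 sections of each. Cdh1 rose by 2.00 ± 0.59 (adjusted p = 0.0109) and 1.55 ± 0.51 (adjusted p = 0.0232), and jupa by 1.58 ± 0.59 (adjusted p = 0.0441) and 1.95 ± 0.66 (adjusted p = 0.0264), each in 5 of 6 sections. In series M ppl (2.32 ± 0.65, adjusted p = 0.00751), evpla (2.30 ± 0.56, adjusted p = 0.00211) and tp63 (1.85 ± 0.65, adjusted p = 0.0358) rose too, making 6 of 7 where 19.1% of all genes were called higher. In series Z 3 of 7 passed, where 22.1% of all genes did, and tp63 was lower in CHT in 4 of 6 sections, at -0.62 ± 0.65 (adjusted p = 0.505). The middle of all genes itself stood at 0.71 and 0.65 here; quantile scaling, which brings it to 0.15 and 0.058, left dspa alone in series M (1.75, adjusted p = 0.0119) and none in series Z, where epcam, evpla and ppl changed sign. Limma-voom called 1 of 7 in series M. In series Z it called only tp63, which was lower in CHT at -2.17 ± 0.69 (adjusted p = 0.0226), and the covariate left 0 of 7 there. The share of all genes called is not given for quantile scaling, limma-voom or the covariate.

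**Figure D3:**
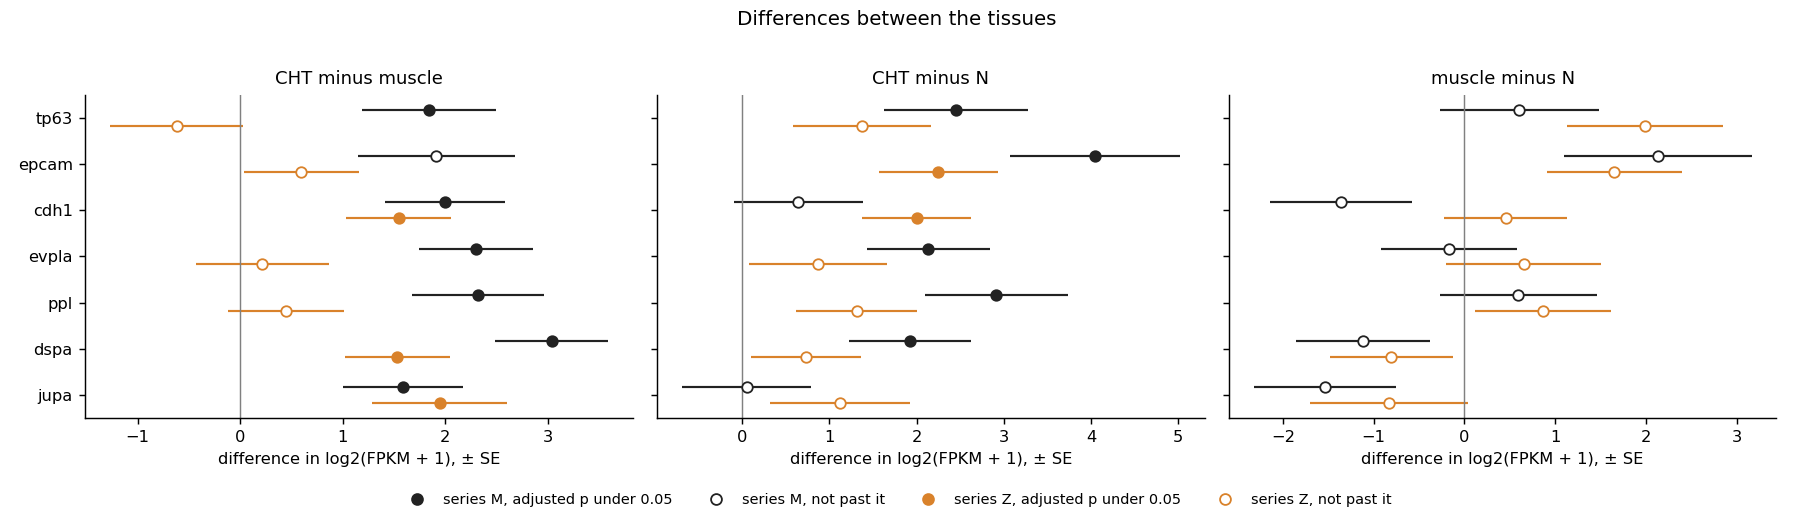
Differences of CHT minus muscle, CHT minus N and muscle minus N for each gene, on the log2(FPKM + 1) scale with the SE of the fit; filled symbols passed an adjusted p under 0.05. Epcam passed in CHT minus N in both series, and dspa, cdh1 and jupa passed in CHT minus muscle in both.

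Between muscle and N limma called 0 of 7 genes in both series, while 49.1% of all genes were called lower and 3.27% higher in series M (41.8% and 3.49% in series Z). In series M jupa was lower in muscle in 6 of 6 sections, at -1.54 ± 0.79 (adjusted p = 0.096), and epcam was higher in 4 of 6, at 2.13 ± 1.03 (adjusted p = 0.0799). In series Z tp63 differed by 1.99 ± 0.86 (adjusted p = 0.0558) and epcam by 1.65 ± 0.74 (adjusted p = 0.0667), each higher in muscle in 5 sections and lower in none. At an unadjusted p under 0.05 stood 1 of 7 genes in series M, beside 10772 of all 18263 genes in either direction. In series Z it was 2 of 7, beside 8712 of all 16547. Limma-voom called as many of the 7. With the spread weighted by region, limma called epcam higher and cdh1 and jupa lower in muscle of series M. In series Z it then called tp63 higher in muscle. The all-gene median was -1.63 and -1.32; once quantile scaling had moved it to 0.11 and 0.045, epcam, tp63 and ppl were called higher in muscle in both series, with evpla in series M and cdh1 in series Z. Jupa then stood at 0.19 and 0.74 and dspa at 1.06 and 0.89, so their direction turned with the scaling, as did that of cdh1 (1.24) and evpla (2.19) in series M. The shares of all genes given above belong to limma with 1 shared spread and without quantile scaling. For limma-voom, the weighted spread and quantile scaling no share is given here, so their counts have no background.

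Between left and right muscle limma called 0 of 7 genes in each series, with 0 of 7 at an unadjusted p under 0.05 and 0 by limma-voom. Of all genes, 207 in series M and 607 in series Z had an unadjusted p under 0.05. L minus R ran from -0.94 to 0.56 over the 7 genes of series M and from -1.52 to 0.80 over those of series Z. Among all genes limma called 0% and 0.0121%, and the share called by limma-voom is not given. Along the layers limma called 0 of 7 genes in CHT and in muscle of either series, as well as 0% of all genes. The steepest was tp63 in muscle of series M, at 0.26 ± 0.08 log2 units per layer (adjusted p = 0.714), the 1 of 7 genes with an unadjusted p under 0.05 in any of the 4 trends. In that trend 884 of all 18263 genes had an unadjusted p under 0.05. CHT slopes were -0.0021 to 0.24 per layer in series M, and those of series Z were -0.015 to 0.069.

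Whether the region differences themselves differed between series M and Z was tested in a joint fit of the 15571 genes tested in both. Limma called 0 of 7 genes in each of the 7 region comparisons, where 0% to 0.629% of all genes were called in either direction. In CHT against muscle 4 of 7 had an unadjusted p under 0.05, beside 1723 of all 15571 genes. Tp63 showed the largest difference there, 2.46 ± 0.93 more in series M than in series Z (adjusted p = 0.259). Ppl had the widest gap in the vessel comparisons, with CVP minus CA lower in series M than in series Z by 3.16 ± 1.32 (adjusted p = 0.427). CVP against CA and CVP against CV had 1 of 7 each at an unadjusted p under 0.05, ppl in both. Of all genes, 1458 and 1565 stood under it. The other 4 comparisons had 0 of 7, beside 290 to 1764 of all genes.

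The make-up of the summed FPKM of the 7 genes differed between captures. FPKM is scaled by gene length but not for amplification, so shares of different genes are a description only. Some rest on few reads, as in CA of layer 6 of series Z, with 2 reads over the 7 genes. In CV of series M epcam took the largest median share, at 27.0%, followed by evpla (18.6%), tp63 (17.2%), ppl (14.9%), jupa (12.5%), cdh1 (5.12%) and dspa (4.86%). In CV of series Z jupa led at 24.0%, with tp63 at 18.8%, epcam at 15.9% and cdh1 at 13.7%. In N jupa took 53.8% and 45.6% in series M and Z, and the median share of epcam was 0 in both. CA of series Z resembled N, with jupa at 50.9% and epcam at 0. In CVP epcam took 46.9% in series M and 7.20% in series Z, and cdh1 10.6% and 28.8%, without a test between the series. R of series Z was led by tp63, at 39.2% over the 5 libraries with any of the 7 genes above 0. The summed FPKM behind these shares ran from 270.2 to 1006 in CV and from 69.1 to 1720 in CA of series M, where layer 17 alone gave the highest CA sum and the other 5 stayed at or under 98.4.

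**Figure D4:**
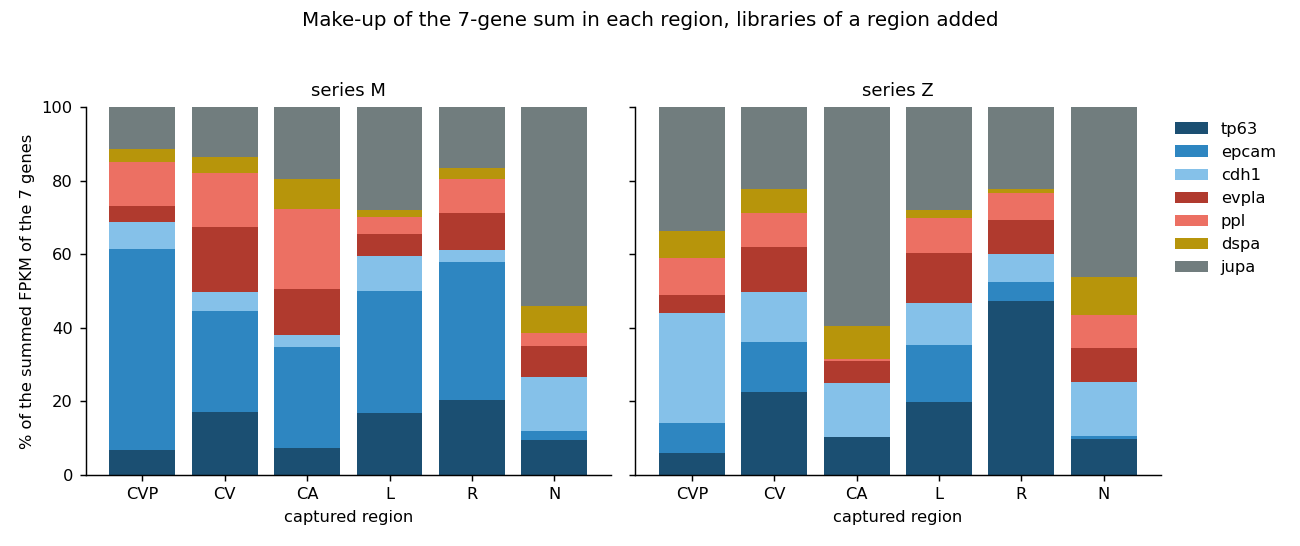
Share of each gene in the FPKM summed over the 7 genes and over all libraries of a region, by region and series, in percent. Jupa fills the largest part in N of both series and in CA, CVP and L of series Z, while CV is spread over all 7 genes. The CA bar of series M is mostly the library of layer 17.

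Across libraries the levels of the 7 genes were positively correlated. All 21 pairs had a positive Pearson r over the 36 libraries of series M (0.235 to 0.841, median 0.611) and over the 35 of series Z (0.0891 to 0.816, median 0.479). After the region means were removed, 18 and 19 of 21 pairs stayed positive, with medians of 0.497 and 0.341. The pairs below 0 all held dspa, with tp63, ppl and jupa in series M (-0.0816, -0.125 and -0.166) and with evpla and ppl in series Z (-0.0335 and -0.0350). A section in which most of the 7 were high was layer 17 of series M, where the mean log2 level over the 7 genes was 6.10 in CVP, 5.95 in CV, 7.24 in CA, 3.51 in L and 4.35 in R, the highest of the 6 sections in all of these but CV. These r are descriptions over libraries that share sections and the scaling of their table.

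Marker lists of the cells that a tail capture can hold were set beside the 7 genes. The mean level of the 7 followed that of 15 skin keratins over the 18 vessel libraries, with an r of 0.915 in series M and 0.881 in series Z, and that of 5 fin fold mesenchyme genes with 0.932 and 0.914. With endothelial genes r was -0.603 and 0.357, with 6 pigment cell genes -0.0818 and 0.659, and with skeletal muscle genes -0.618 and -0.702. In the muscle captures r with the skin keratins was 0.908 (12 libraries of series M) and 0.846 (11 of series Z). There r with the fin fold genes was lower, at 0.354 and 0.530, and r with skeletal muscle genes was -0.837 and -0.402. Over all libraries r with log10 of the reads was -0.440 in series M and 0.362 in series Z, and over the muscle libraries of series Z it was 0.706.

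The same lists shifted with the captures. Skin keratins (15 of 18 listed were tested, with krt93 at 0 in all CV and CA libraries) averaged 4.71, 6.51 and 3.13 in CVP, CV and CA of series M and 5.60, 6.56 and 2.61 in those of series Z, while N had 1.40 (series M) and 1.18 (series Z). Their summed level was 18153 to 58487 FPKM in CV and 1029.6 to 106644 in CA of series M, where layer 17 was the top, and 11731 to 30001 against 424 to 1705 in series Z. The fin fold list summed to 1194 to 6881 FPKM in CV and 0.599 to 11830.1 in CA of series M, and to 3816 to 11441 and 0 to 25.0 in series Z, with and3 at 0 in all CA libraries of series Z. Skeletal muscle genes went the other way, at 392.3 to 2669 FPKM in CV against 5959 to 138763 in CA of series M, and at 17.9 to 1371 against 2395 to 60185 in series Z, with acta1b at 0 in all CV libraries of series Z. Endothelial genes summed to 2.24 to 436.7 FPKM in CV and 103 to 934.6 in CA of series M, with lyve1b at 0 in both, and to 451 to 1104 and 163.5 to 954.6 in series Z. Pigment cell genes summed to 8.77 to 2179 FPKM in CV and 29.7 to 2191 in CA of series M, and to 2023 to 4067 and 40.8 to 1073 in series Z, with none of the 6 at 0 throughout either capture. In CV against CA the pigment cell genes called higher were 1 of 6 (series M) and 5 of 6 (series Z), beside 1.41% and 3.41% of all genes. With the weighted spread they were 0 and 5, beside 0.411% and 2.51% of all genes. The CV and CA captures thus differed in skin, fin fold and muscle markers in both series, and in pigment cell markers in series Z; the part of these in the results above was not tested.

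**Figure D5:**
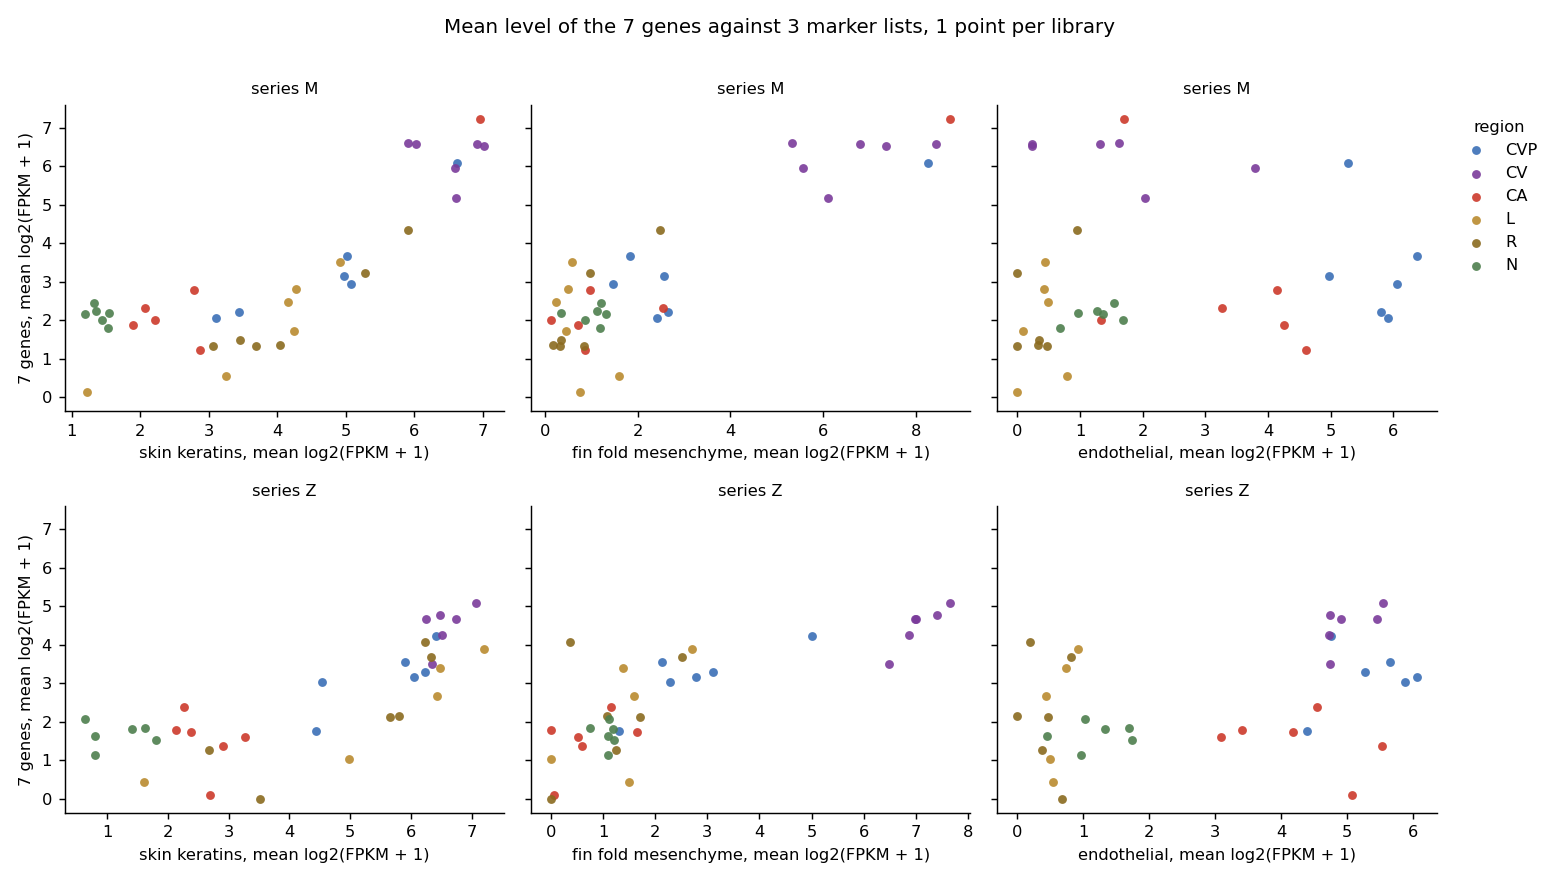
Mean log2(FPKM + 1) of the 7 genes against that of the skin keratin, fin fold mesenchyme and endothelial lists, with 1 point per library, coloured by region, and series M above series Z. The CV libraries sit at the upper right for skin keratins and fin fold genes in both series, with CA of layer 17 among them in series M; for the endothelial list they lie left of CVP in series M.

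Other genes of skin adhesion and identity were read from lists chosen with earlier results of these data known. Of the other desmosome and plakin genes (11 of 17 in the tables), 2 of 10 tested in series M rose in CV against CA, as did 1 of 9 in series Z, beside 1.41% and 3.41% of all genes. The gene shared by both was pkp3a, plakophilin 3a of the desmosomal plaque, at 4.30 ± 0.86 (adjusted p = 0.00201) and 3.93 ± 0.89 (adjusted p = 0.00528), and its call held under the weighted spread (adjusted p = 0.0382 and 0.0113). It also rose in CHT against N, by 3.72 ± 0.70 (adjusted p = 8e-05) and 2.69 ± 0.72 (adjusted p = 0.00452). Its paralog pkp3b fell in CHT against N, by 2.35 ± 0.81 (adjusted p = 0.0268) and 3.11 ± 0.84 (adjusted p = 0.0048). Whether reads were split between the pair was not tested. Desmocollin, dsc2l, a desmosomal cadherin, rose in CHT against muscle, by 2.82 ± 0.57 (adjusted p = 0.00031) and 1.70 ± 0.58 (adjusted p = 0.0267). The paralogs dspb and evplb were not analysed here, and jupb was at 0 in all CA, L and R libraries of series M.

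The basal anchoring list was chosen for ties of keratinocytes to the basement membrane or for the basal layer. Whether each of its genes is basal in these captures was not tested. It gave 4 of 12 (series M) and 5 of 12 (series Z) higher in CV than in CA, where 1.41% and 3.41% of all genes were. Krt5, a keratin gene of that list, rose by 6.89 ± 0.99 (adjusted p = 2.36e-05) and 7.51 ± 0.94 (adjusted p = 1.3e-06). The claudin genes cldni and cldn1 followed, at 5.94 ± 1.1 (adjusted p = 0.000733) and 5.15 ± 1.08 (adjusted p = 0.00327) in series M and 8.21 ± 1.23 (adjusted p = 2.31e-05) and 7.43 ± 1.12 (adjusted p = 2.52e-05) in series Z. Under the weighted spread cldn1 lost its call in series M (adjusted p = 0.0679). Against N, the integrin genes split: itga6b rose in CHT by 1.99 and 1.85, while itga6a fell by 3.80 in both series. Among adherens junction partners 1 of 7 was called higher and 1 lower in CV against CA of series M and none in series Z, and N-cadherin, cdh2, known from neural tissue, fell in CHT against N by 3.85 ± 0.75 and 3.04 ± 0.66 (adjusted p = 0.000126 and 0.000466).

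Transcription and splicing factors of epithelia gave 6 of 14 (series M) and 5 of 13 (series Z) higher in CV than in CA, the same shares of all genes applying (1.41% and 3.41%). Dlx3b, tfap2a and tfap2c, factors of the ectoderm, rose by 4.56 ± 1.1, 4.27 ± 0.90 and 3.86 ± 0.83 in series M and by 5.54 ± 0.91, 3.65 ± 1.07 and 3.83 ± 0.91 in series Z. Under the weighted spread all 3 lost their call in series M (adjusted p = 0.152, 0.113 and 0.0704), where grhl3 alone of the list passed, and tfap2a lost it in series Z (adjusted p = 0.0786). Epithelial protease control and polarity genes gave 4 of 14 and 6 of 14, with cldnb, a tight junction gene, at 5.41 ± 0.98 and 6.16 ± 1.22 and the matriptase inhibitor gene spint2 at 5.49 ± 1.16 and 5.31 ± 1.04. Skin keratins gave 7 of 15 higher and 1 lower (krt18) in series M and 8 of 15 higher in series Z, and periderm genes, which share krt17 with them, 4 of 10 and 6 of 10. With the spread weighted by region the counts higher in series M became 1 for other desmosome genes, 3 for anchoring, 1 for transcription and splicing, 3 for protease control, 7 for keratins and 0 for periderm. In series Z they were 1, 4, 3, 6, 8 and 6, beside 0.411% (series M) and 2.51% (series Z) of all genes.

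Genes whose pattern was most like the mean of the 7 were ranked by the lower of the r of both series, over 36 and 35 libraries. The candidates were genes tested in both series, without the 7 and without clone-style names, such as those starting with LOC or zgc. Lye led (0.883 in series M, 0.870 in series Z), followed by gsnb (0.844, 0.878), cldne (0.902, 0.828), caspb (0.826, 0.895) and and2 (0.912, 0.825). Anxa1b, ch25hl1.1, tmsb4x, spint2 and cldnb completed the first 10, cldnb with 0.845 and 0.810. Lye had 396.4 to 1745 FPKM in CV of series M and 68.2 to 845 in series Z. In CA it had 0 to 2929 FPKM in series M (median 0) and was listed at 0 in all 6 libraries of series Z. In CVP it reached 2085 FPKM in series M and 195 in series Z. Taken singly among these candidates, tp63 was most like rbp4 (0.737, 0.712), epcam like lye (0.887, 0.889) and cdh1 like vaspb (0.824, 0.750). Evpla was most like lye (0.791, 0.742) and ppl like caspb (0.846, 0.795). Among the 7 themselves, ppl was closer to epcam (0.806, 0.816) than to caspb by the same rule. Dspa and jupa had other neighbours: slc25a24 (0.675, 0.666) for dspa, and arpc4 (0.755, 0.733) with the actin genes actb1 and actb2 for jupa.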

How the data were processed

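RNA of laser captures was amplified by a PCR of the single-cell kind before sequencing, per the labels' protocols. The authors deposited 1 table of FPKM per series; the submitters' processing notes name FastQC, HISAT, HTSeq, DESeq2 and the build GRCz10, without versions, and the counting of strand or shared reads is not given in the sources used here. FPKM divides by the library total, so abundant muscle transcripts lower the other genes. Whole reads were recovered from the FPKM steps (within 0.01 of a whole number) for 23948 of 23948 genes above 0, series M, and 23482 of 23482, series Z, and limma-voom was run on them. Without molecular identifiers, reads can be copies of a single molecule.

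Genes reaching 1 FPKM in 6 or more libraries were fitted with limma-trend (limma 3.58.1, R 4.3.3) on log2(FPKM + 1), each series alone, with region and section as terms; the section pairs regions because all 6 were cut from it. Calls were at a Benjamini-Hochberg adjusted p under 0.05 over all genes, two-sided. The series were scaled apart, and only differences within a table were compared. The pipeline was tested on simulated data, where the shared spread gave more false calls of CV against CA in series M than the spread weighted by region, and both gave more than the threshold intends. The simulated noise beyond read sampling was alike in all regions, with no section effect. The 7 genes and all lists were chosen with earlier results of these data known. All 7 genes were named. Of each list, those with the largest change that passed with 1 sign in both series were named. Of like genes, the first 10 were named, after the 7 and clone-style names were left out.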

Additional observations from a re-analysis of the deposited data

Results flagged for a closer look

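In 12 of 83 groups of 1 gene, region and series, a library stood apart from the others of its group by Dixon's test, which chance does in about 5% of groups. In series M, 3 of the 12 belonged to layer 17: epcam in CA at 589.8 FPKM, evpla in CVP at 49.6 and dspa in R at 10.1, each the highest of its group. The other cases of series M were tp63 in CVP of layer 15 (0, the lowest), epcam in CV of layer 2 (41.7, the lowest), epcam in N of layer 15 (5.90, the highest) and jupa in R of layer 15 (0, the lowest). In series Z they were tp63 in CA of layer 10 (26.0, the highest), epcam in N of layer 10 (1.68, the highest), ppl in CA of layer 25 (1.52, the highest), ppl in CVP of layer 10 (0, the lowest) and dspa in CVP of layer 22 (15.6, the highest). The values of 589.8, 1.68 and 1.52 were the only ones above 0 in their groups, where the zeros alone set Dixon's ratio at 1. The share given for chance does not apply to such groups.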

How the results depend on the processing

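Counts are genes of the 7 called. The share of all genes called under these settings is not given, save for some fits with the weighted spread or without the CA library of layer 17, given above. Under no filter on low values or with thinned libraries no count moved by more than 1.5 times, and CVP against CV in series Z, L against R, the layer trends and the differences between series stayed at 0 under each setting run. Limma-voom on recovered reads gave 1 for CV against CA, 1 for CVP against CV, 1 for CHT against muscle and 1 for muscle against N in series M, and 2 for CVP against CA, 1 (lower in CHT) for CHT against muscle and 2 for muscle against N in series Z. Quantile scaling gave 2 for CV against CA, 1 for CHT against muscle and 4 for muscle against N in series M, and 0 and 4 for these last comparisons in series Z. A pseudocount of 0.1 gave 1 for CHT against N, 3 for CHT against muscle, 1 for CV against CA and 1 for CVP against CV in series M, and 1 for CVP against CA in series Z. With only the regions compared in the fit, series M gave 3 for CHT against N, 4 for muscle against N, 0 for CV against CA and 0 for CVP against CV, and series Z gave 1 for muscle against N and 1 for CV against CA. The spread weighted by region gave 3 (1 higher, 2 lower) for muscle against N, 0 for CV against CA and 1 for CVP against CV in series M. It gave 1 (higher) for muscle against N in series Z. Leaving out the CA library of layer 17 as well gave 3, 2 and 1 for the same comparisons in series M. Without that library alone CVP against CA gave 1. Detected genes as a covariate gave 0 for CHT against N and for CVP against CV in series M and 0 for CHT against muscle in series Z. Without the libraries closest to another region, CHT against N gave 3 and CHT against muscle 3 in series M. Keeping the derived left muscle library gave 1 for CVP against CA in series Z. Without the replicate block, in which the section pairs regions, CV against CA in series M gave 2 and CVP against CA in series Z gave 1; CHT against muscle in series M gave 5 and CV against CA in series Z gave 3, and the other 10 counts of calls were the same. The settings that weight the spread by region or leave out libraries by profile or the CA library of layer 17 were chosen after seeing the data. The cause was not tested where a count moved.

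Leaving out 1 section at a time gave 2 to 4 for CHT against N, 0 to 1 for muscle against N, 1 to 6 for CV against CA, 0 to 1 for CVP against CA and 1 to 3 for CVP against CV in series M, and 0 to 2 for CHT against N, 0 to 2 for muscle against N, 0 to 3 for CHT against muscle and 0 to 2 for CVP against CA in series Z. Signs turned for differences that were not called. In CHT against muscle of series Z, epcam had -0.23 with detected genes as a covariate, -0.34 by limma-voom and -0.19 under quantile scaling, evpla -0.98, -0.75 and -0.42 under the same settings and -0.0536 thinned (-0.49 to 0.71 without 1 section), and ppl -0.50 by limma-voom and -0.53 under quantile scaling. In CVP against CV of series Z, dspa had -0.24, -0.55 and -0.50 with the covariate, limma-voom and quantile scaling (-0.36 to 0.70 without 1 section) and cdh1 0.077 by limma-voom (-0.48 to 0.18 without 1 section). In CVP against CA of series M, tp63 had -0.44 and jupa -0.00057 with the covariate, and tp63, cdh1 and jupa -0.46, -0.080 and -0.65 under quantile scaling. There ppl had 0.52 with a pseudocount of 0.1, 0.49 without the CA library of layer 17 and 0.52 with the weighted spread as well, and without the libraries closest to another region evpla had 0.14, dspa 0.26 and jupa -0.0100. Without 1 section these ran from -0.39 to 0.87 for tp63, -0.86 to 0.57 for ppl, -1.46 to 0.22 for dspa and -0.22 to 1.00 for jupa. In CVP against CA of series Z evpla had -0.72 and jupa -0.60 with the covariate, and evpla -0.027 without the libraries closest to another region. In muscle against N, quantile scaling gave cdh1 1.24, evpla 2.19 (called), dspa 1.06 and jupa 0.19 in series M and dspa 0.89 and jupa 0.74 in series Z. Evpla of series M also had 0.91 by limma-voom and 0.30 thinned (-0.48 to 0.21 without 1 section), and in series Z dspa had 1.09 and jupa 2.83 with the covariate and jupa 0.10 by limma-voom (-1.36 to 0.027 without 1 section), with evpla at -0.12 to 1.60 without 1 section. In CHT against N of series M jupa had -0.20 with a pseudocount of 0.1, -0.20 without the CA library of layer 17, -0.20 with the weighted spread as well and -0.066 without the libraries closest to another region (-0.27 to 0.41 without 1 section). Slopes in CHT turned for jupa of series M, at 0.028 under quantile scaling, 0.034 per rank of the layer and 5.3e-05 thinned (-0.19 to 0.12 without 1 section), and for tp63 of series Z, at 0.016 with a pseudocount of 0.1. Jupa in L against R of series Z ran from -0.0092 to 1.55 without 1 section. Among single differences with their sign kept, 13 lost and 6 gained a call by limma-voom, 11 and 8 under quantile scaling, 13 and 1 with a pseudocount of 0.1, 14 and 1 with the covariate, 13 and 5 with only the regions compared, 6 and 4 with the weighted spread and 4 and 1 without the replicate block. Depth limits zeros: in the shallowest libraries, of 75007 and 91102 reads, a gene at 0 FPKM was below detection and not shown to be absent.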
